A study of Mus musculus with 12 samples.

Results

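The effect of the cytokine TGFβ1 on resting macrophages was measured as the difference between 3 libraries of cells kept with TGFβ and 3 libraries of untreated cells, 6 of the 12 libraries of the series. The cells are fetal liver alveolar-like macrophages (FLAMs) of the mouse, grown from fetal liver to resemble the macrophages of the lung air spaces. All cells, the untreated ones included, were kept in recombinant mouse GM-CSF at 30 ng/ml. The TGFβ group also had recombinant human TGFβ1 at 20 ng/ml. The other 6 libraries, from cells exposed for 18 h to 25 ng/ml of Pam3CSK4 (Pam3), a lipopeptide that activates TLR2, without TGFβ (Pam3, 3 libraries) or with it (Pam3+TGFβ, 3 libraries), entered the shared estimate of the spread between libraries and a test of whether the resting effect differed in Pam3-treated cells. The labels describe cultured cells outside the lung. Mouse strain, the length of exposure to TGFβ and whether replicates came from separate cultures are not given in the sources used here, so p-values measure the spread between these samples, which may be technical.

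TGFβ is secreted bound to a latency peptide, is set free by integrins and other proteins, and binds a complex of the receptors encoded by Tgfbr1 and Tgfbr2. The receptor phosphorylates SMAD proteins, which enter the nucleus with Smad4 and change transcription, including that of their own inhibitors. In the lung, TGFβ together with GM-CSF is known to be needed for alveolar macrophages to form and persist, and these cells clear surfactant lipid through the nuclear receptor encoded by Pparg.

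The 6 resting libraries held 34036650 to 41915315 counts, which limits precision for genes with few counts. In a principal component analysis of the resting libraries, 71% of the variance lay on a first component that separated the groups, and the second (13%) separated libraries by their share of mitochondrial counts. That share was 0.068% to 0.081% in untreated replicates 1 and 2 and TGFβ replicate 2, and 0.348% to 0.596% in untreated replicate 3 and TGFβ replicates 1 and 3, so each group holds libraries of both kinds. The summed share of a few non-polyadenylated RNAs divided the same libraries, at 0.00067% to 0.0020% in the former and 0.0356% to 0.117% in the latter. These were taken from the set Rn7s1, Rn7s2, Rn7sk, Rmrp and Rpph1 after the data were seen, and do not stand for all such RNA. The cause of either was not tested. The 8 defining macrophage markers were present in every library, with a summed level of 31900 to 36210 CPM (counts per 1000000 of the effective library size) in untreated and 17560 to 18520 CPM in TGFβ libraries, so the label of macrophage held in both groups. Most of this sum is the lysozyme gene Lyz2, which fell from 29820 ± 2123 to 15250 ± 460.1 CPM (mean ± SD, n = 3, as for each such pair of values). Of the 8 markers 5 fell, 1 rose and 2 did not pass, and Adgre1 fell by 1.06 on the log2 scale. In bulk RNA, fewer cells of a type and less RNA per cell cannot be told apart.

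Markers of several other cell types were at or near 0. Of 6 lymphocyte markers, the summed level was at most 0.192 CPM in untreated and 0.419 CPM in TGFβ libraries. The 7 erythroid markers summed to at most 0.627 CPM, the 10 mast cell and basophil markers to at most 1.56 CPM, the 8 fibroblast markers to at most 4.48 CPM and the 6 hepatocyte markers to at most 6.56 CPM. The 11 neutrophil markers summed to 14.1 to 16.2 CPM in untreated and 11.9 to 12.7 CPM in TGFβ libraries, with Mpo and Retnlg at 0 in all 6. Of the 6 neutrophil markers tested 3 rose and 1 fell. The 8 dendritic cell markers summed to 66.2 to 70.3 CPM without and 24.7 to 28.2 CPM with TGFβ, with Flt3 at 0. Of 4 tested, 1 rose and 2 fell. Ccl22 had 1634, 2032 and 1641 counts without and 140, 256 and 149 with TGFβ, and Clec9a 690, 596 and 622 and then 690, 832 and 829. The 6 megakaryocyte markers summed to 6.89 to 8.41 CPM without and 0.472 to 0.642 CPM with TGFβ, with Gp9 at 0. The 6 endothelial markers summed to 287.4 to 302.8 CPM without and 180.6 to 196.5 CPM with TGFβ, nearly all of it Vwf, and of 4 tested 3 fell and 1, Pecam1, rose. The 8 osteoclast markers summed to 375.7 to 422.6 CPM without and 460.3 to 485.6 CPM with TGFβ. That rise in the sum was in Acp5, a phosphatase of osteoclasts and macrophages (210.5 ± 21.9 and 356 ± 12.8 CPM), whereas 4 of the 6 tested members fell and 2 rose, with a median of -2.44. The part of other cells in the results was not tested.

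Of 14749 genes tested with the quasi-likelihood test of edgeR, 7518 passed an adjusted p of 0.05, which is 51% of all tested genes: 3377 rose with TGFβ (22.9%) and 4141 fell (28.1%). The groups did not overlap in 8321 of all tested genes (56.4%). Most changes were small. The median size among called genes was 0.49 on the log2 scale, 726 genes rose (4.92%) and 1261 fell (8.55%) by at least 1 on that scale, and the median log2 fold change of all tested genes was -0.008. A set of 109 genes had at most 3 counts in every TGFβ library and at least 10 in every untreated one, against 24 genes with the reverse pattern.

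**Figure D1:**
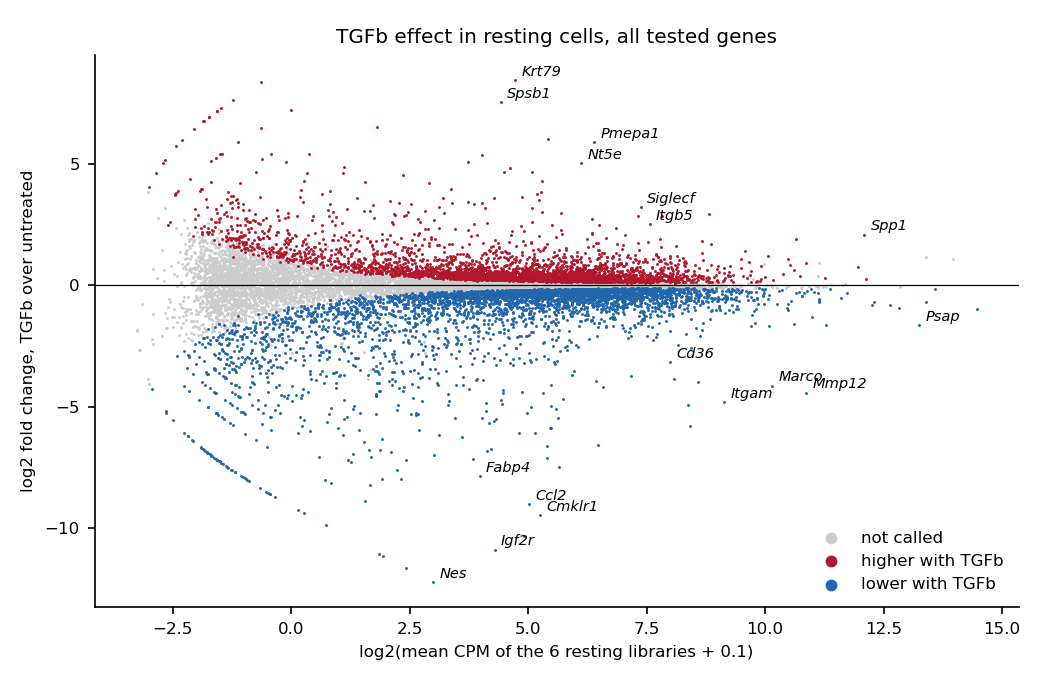
Each point is 1 of 14749 tested genes, with its mean level over the 6 resting libraries on the horizontal axis (log2 CPM) and its log2 fold change with TGFβ on the vertical axis. Red points rose (3377), blue points fell (4141) and grey points did not pass an adjusted p of 0.05. The curved rows of points at low levels are genes at or near 0 in 1 of the groups, whose fitted folds depend on the prior count.

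In the lists that follow, a member's value is its CPM in each replicate from 1 to 3, and statistics are the log2 fold change of TGFβ over untreated cells, its standard error (SE) and the adjusted p of edgeR's test over all tested genes. Most genes were named by a rule of size within each list or over all genes. Smad6, Smad7, Tgfb1, Id3, Tgfbi, Itgam, Gpnmb, Srebf1, Hmgcs1, Fasn, Scd1, Lpl, Itgb2, Itgal, Mmp12, Mmp14, Timp2, Fn1, Cxcl3, Il6, Tnf, Lif, Lyz2, Vwf, Acp5, Pecam1, S100a8, S100a9, Camp and Dcstamp were chosen after their values were seen. Across the 18 lists, all but 1 (mitosis, 36.8%) had a larger share of called members than the 51% of all tested genes, so a share of calls by itself sets few of them apart, and the split between directions is given for each.

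**Figure D2:**
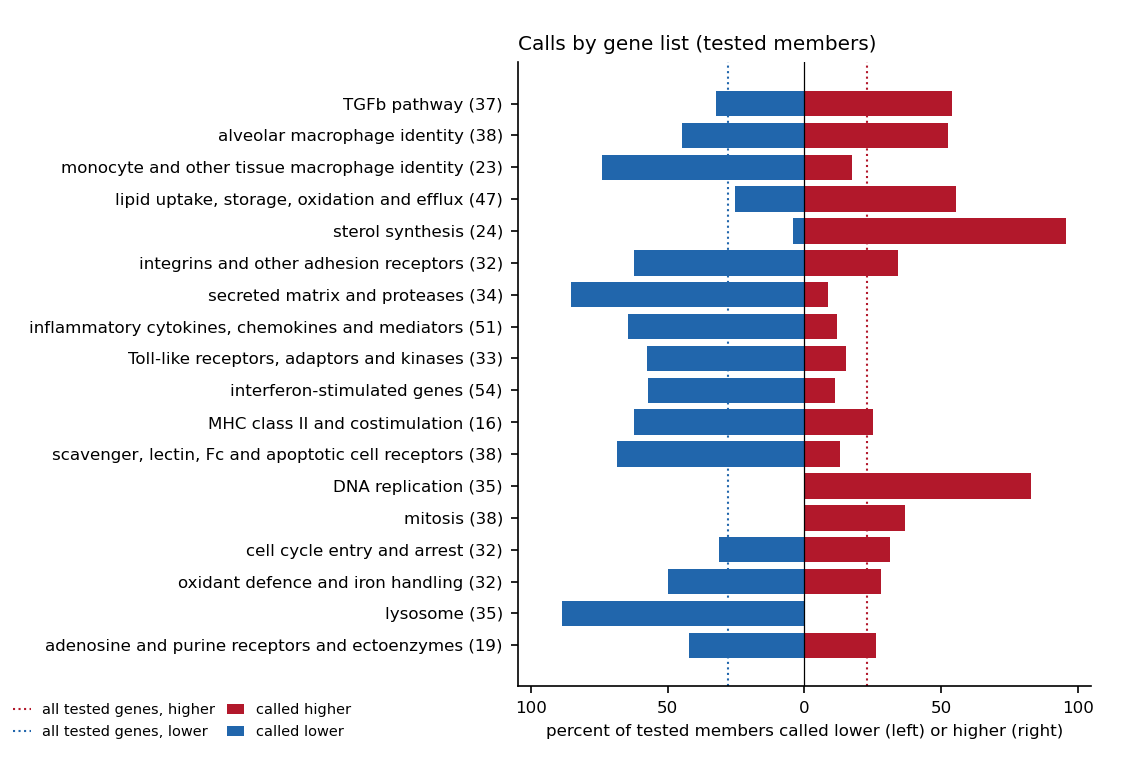
Bars give the percent of tested members of each of 18 gene lists that rose (right, red) or fell (left, blue) with TGFβ in resting cells, with the number of tested members in brackets. Dotted lines mark the same percent over all 14749 tested genes (22.9% higher, 28.1% lower). Sterol synthesis and DNA replication lie almost wholly to the right, and lysosome, matrix and protease genes to the left.

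The TGFβ pathway itself moved in both directions: 20 of 37 tested members rose and 12 fell, with a median of 0.48. Pmepa1 (chr2:173066251-173118444 of GRCm39), whose protein sequesters receptor-activated SMADs, was at 2.68, 2.48 and 3.25 CPM in untreated and 168, 160.3 and 165 CPM in TGFβ libraries. The groups lay far apart, a 58.8-fold rise (log2 fold change 5.88, SE 0.112, adjusted p 1.8e-18). Spsb1 (chr4:149866034-150039500), which directs the receptor TβRII to degradation, was at 0.289, 0.12 and 0.285 CPM without and 42.5, 43 and 42.5 CPM with TGFβ (log2 fold change 7.53, SE 0.152, adjusted p 7.11e-23). It was barely detected without TGFβ, and its fold therefore rests on few counts (11, 5 and 10) in that group. Smad7, the inhibitory SMAD that binds the receptor, rose 5.02-fold from 2.42 ± 0.201 to 12.1 ± 0.726 CPM, and its relative Smad6 rose 2.53-fold from 9.47 ± 1.14 to 24 ± 1.71 CPM. Skil, the co-repressor SnoN, was at 82.7, 82.2 and 94.2 CPM without and 234, 247 and 236 CPM with TGFβ, a rise of 2.77-fold with no overlap. The repressor Tgif2 rose 7.32-fold. Tgfbi, a secreted protein named for its induction by TGFβ, rose by 1.92 and Id3, an inhibitor of helix-loop-helix factors, by 1.58 on the log2 scale.

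Receptors and proteins that hold or present latent TGFβ changed unequally. The type I receptor Tgfbr1 (chr4:47353134-47414931) was at 189, 156 and 192 CPM in untreated and 618, 667 and 626 CPM in TGFβ libraries, so it rose 3.56-fold (log2 fold change 1.83, SE 0.0719, adjusted p 2.02e-14). The type II receptor Tgfbr2 (chr9:115913361-116004800) moved the other way, from 484, 451 and 466 CPM to 297, 299 and 296 CPM (log2 fold change -0.65, SE 0.0421, adjusted p 1.2e-12). Neither receptor's groups overlapped. Nrros, which tethers latent TGFβ on macrophages, was at 335, 346 and 323 CPM and 85.3, 82 and 83.8 CPM and fell 4-fold. Lrrc32, the tether known as GARP, was at 6.13, 7.05 and 7.73 CPM without TGFβ and had no count in any TGFβ library, at least 88.7-fold lower against a floor of 3 counts per library. The accessory receptor Eng was at 1.13, 1.68 and 1.2 CPM without and 0.0553, 0 and 0.0524 CPM with TGFβ (2, 0 and 2 counts). The ligand gene Tgfb1 fell by 0.41 on the log2 scale, from 502 ± 40.6 to 378 ± 14.2 CPM. Of the signal-carrying SMADs, Smad3 was low throughout, at 0.5, 0.866 and 0.542 CPM without and 0.221, 0.148 and 0.21 CPM with TGFβ (log2 fold change -1.71, SE 0.611, adjusted p 0.0218), a call that was lost without untreated replicate 2 (adjusted p 0.109) and without any 1 of the TGFβ libraries (0.056 to 0.0912).

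One inhibitor that rose, Smad6, carries the palindrome GTCTAGAC, to which SMAD3 and SMAD4 bind, in its promoter, and it is shown for that reason. The search covered RefSeq promoter windows of GRCm38.p6, 250 bases before to 50 after a gene's start, on both strands, matched by symbol for 11210 of the 14749 tested genes. Only 34 of 14256 windows (0.238%) held the 8 letters, against 3 of 702 windows of genes that rose by at least 1 (0.427%) and 4 of 1228 of genes that fell by at least 1 (0.326%). In the TGFβ pathway list 2 of 36 windows held them (5.56%). Capitals mark the match, which begins 4 bases before the start site (chr9:64022010-64022309, minus strand, read 5′ to 3′ along the gene):
Smad6: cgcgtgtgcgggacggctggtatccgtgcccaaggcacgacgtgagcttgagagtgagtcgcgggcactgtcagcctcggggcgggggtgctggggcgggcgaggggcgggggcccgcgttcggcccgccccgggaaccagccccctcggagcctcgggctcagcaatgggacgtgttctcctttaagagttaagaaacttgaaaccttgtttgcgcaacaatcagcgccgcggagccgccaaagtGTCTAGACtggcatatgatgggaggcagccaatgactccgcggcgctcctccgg
The match is a description of letters and was not tested as a binding site.

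Genes that mark alveolar macrophages moved in both directions, with 20 of 38 members higher, 17 lower and a median of 0.28. By at least 1 on the log2 scale, 10 rose and 3 fell. Those that rose most include the surface receptor, the ribonucleases and the epithelial-type genes by which lung macrophages are recognised. Siglecf (chr7:43000765-43008955), the sialic acid receptor used to identify alveolar macrophages, was at 34.3, 30.1 and 32 CPM in untreated and 307, 289 and 305 CPM in TGFβ libraries. All TGFβ libraries lay above all untreated ones, by 9.35-fold (log2 fold change 3.22, SE 0.0624, adjusted p 3.74e-23). Ear1, an eosinophil-associated ribonuclease of alveolar macrophages, rose 14.3-fold from 5.05 ± 0.212 to 72.3 ± 5.12 CPM. Ear genes are near-identical copies between which reads can be split, so their values are uncertain. Krt79 (chr15:101837767-101848759) and Krt19 (chr11:100031636-100039491) encode keratins. Krt79 went from 0.21, 0.144 and 0.0856 CPM, or 8, 6 and 3 counts, to 54.2, 52.4 and 51 CPM (log2 fold change 8.44, SE 0.204, adjusted p 2.82e-19), and Krt19 from 1.68, 1.76 and 1.6 CPM to 44.7, 43.7 and 40.1 CPM (log2 fold change 4.67, SE 0.177, adjusted p 7.63e-14). Both were close to undetected or low in every untreated library and high in every TGFβ library. Of the epithelial adhesion genes, Cdh1, encoding E-cadherin, rose 2.3-fold from 171 ± 11.8 to 394 ± 6.64 CPM, while Epcam rose but remained at a low level, 0.0789, 0 and 0.057 CPM without and 1.83, 1.38 and 1.6 CPM with TGFβ.

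Pparg (chr6:115337675-115468268), the lipid-sensing nuclear receptor that directs alveolar macrophage differentiation, was at 112, 119 and 119 CPM without and 225, 229 and 221 CPM with TGFβ. Its groups did not overlap and it rose 1.92-fold (log2 fold change 0.94, SE 0.0448, adjusted p 2.34e-15). Car4, a membrane carbonic anhydrase, rose 1.73-fold. Other genes of the same list fell by more than these rose. Fabp4 (chr3:10268785-10273737), a fatty acid carrier and a known PPARγ target, was at 31, 32.2 and 30 CPM in untreated and 0.166, 0.0741 and 0.157 CPM in TGFβ libraries, a fall of 232-fold (log2 fold change -7.86, SE 0.196, adjusted p 4.93e-21). This fold rests on few counts in the TGFβ libraries, and its log2 value ran from -8.02 to -7.54 when 1 library was left out. Marco (chr1:120402267-120432753), a scavenger receptor for unopsonised particles and bacteria, was at 1890, 2422 and 2128 CPM without and 119, 130.5 and 120.4 CPM with TGFβ, 17.4-fold lower (log2 fold change -4.12, SE 0.0781, adjusted p 7.11e-23). The integrin chain Itgax, or CD11c, fell 2-fold from 335 ± 11.4 to 168 ± 7.68 CPM. The summed level of the list was 24190 to 25040 CPM without and 22230 to 23060 CPM with TGFβ, a sum that includes the fall of the abundant Marco.

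Genes of monocytes and of other tissue macrophages fell in 17 of 23 tested members and rose in 4, with a median of -2.52, which was -1.75 without untreated replicate 2 and -1.79 without Pam3 replicate 2 or 3. Itgam (chr7:127661808-127717753), the CD11b integrin chain that is high on monocytes and many tissue macrophages, was at 1071, 1050 and 1144 CPM in untreated and 36.6, 40.2 and 39.4 CPM in TGFβ libraries. The groups were 28.1-fold apart (log2 fold change -4.81, SE 0.0677, adjusted p 2.32e-25). Ccr2, the receptor with which monocytes follow CCL2, fell 13.3-fold from 269 ± 34.6 to 20.3 ± 0.949 CPM. The complement genes C1qc and C1qb, made by many resident macrophages, were at 3.08 ± 0.896 and 8.38 ± 1.13 CPM without TGFβ and had at most 1 and 8 counts in a TGFβ library. Timd4, a phosphatidylserine receptor of long-lived resident macrophages, was at 1.6, 2.04 and 2.4 CPM without TGFβ and without a count with it, at least 25.6-fold lower. Gpnmb, a glycoprotein of lipid-laden macrophages, fell 14.5-fold from 2512 ± 92 to 173 ± 2.74 CPM. The receptor for M-CSF, Csf1r, fell little, from a range of 931 to 1077 CPM without TGFβ to one of 809 to 838 CPM with it (log2 fold change -0.26, SE 0.0551, adjusted p 0.000287), and the fractalkine receptor Cx3cr1 fell 1.95-fold from 2.42 ± 0.219 to 1.24 ± 0.342 CPM. Among the 4 that rose, Apoe rose 2.08-fold, only to 8.78 ± 0.524 CPM, and the Kupffer cell lectin Clec4f had no count without TGFβ and 0.747, 1.31 and 1.21 CPM with it, at least 13.8-fold higher.

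Lipid genes rose in 26 of 47 tested members and fell in 12, with a median of 0.17. The 4 largest rises were in genes of lipid synthesis, storage and lipase control. Dgat2, which completes triglyceride synthesis, was at 1.39, 2.26 and 1.23 CPM without and 15.6, 16.6 and 14.4 CPM with TGFβ, 9.4-fold higher. Fads2 (chr19:10038130-10079203), the desaturase that begins synthesis of long polyunsaturated fatty acids, was at 52.6, 57.2 and 53.4 CPM and 396, 396 and 398 CPM (log2 fold change 2.87, SE 0.0494, adjusted p 4.21e-24), a rise with little spread in either group. Srebf1, the transcription factor of fatty acid synthesis, rose 2.19-fold, from 161 ± 13.3 to 352 ± 7.73 CPM, and its known targets Fasn (0.95) and Scd1 (1.68) rose by these log2 values. Angptl4, a secreted inhibitor of lipoprotein lipase, rose 3.86-fold, and the lipase gene Lpl fell by 0.82 on the log2 scale. The droplet coat genes Plin1 and Plin2 rose 3.68-fold and 1.34-fold, Plin1 only to 5.74 ± 0.547 CPM and Plin2 to 677 ± 28.8 CPM. Abca1, which exports cholesterol, rose 1.4-fold (log2 fold change 0.48, SE 0.0977, adjusted p 0.00144). Of the 12 members that fell, 2 fell by at least 1 on the log2 scale. Cd36 (chr5:17986432-18094067), a fatty acid and oxidised lipoprotein receptor, was at 446, 450.5 and 472 CPM in untreated and 50.1, 55.7 and 47.8 CPM in TGFβ libraries, 8.91-fold lower (log2 fold change -3.15, SE 0.0642, adjusted p 9.56e-20). Fabp5, a fatty acid carrier like Fabp4, fell 2.1-fold, and Mgll, a lipase that ends triglyceride breakdown, fell 1.98-fold.

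Sterol synthesis genes moved together. Of 24 tested members 23 rose and 1 fell, with a median of 0.65 and a highest value of 1.32. Nsdhl, a sterol dehydrogenase late in the pathway, was at 55.6, 55.1 and 55 CPM without and 139.6, 145 and 130.4 CPM with TGFβ, 2.5-fold higher (log2 fold change 1.32, SE 0.0543, adjusted p 1.28e-16). Tm7sf2, Acat2 and Dhcr7, which reduce or build sterol intermediates, rose 2.37-fold, 2.29-fold and 2.02-fold. The list's summed level was 3153 to 3252 CPM in untreated and 4728 to 4748 CPM in TGFβ libraries.

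Sterol genes are known to share a short element read by the SREBP factors, and Hmgcs1 is shown as the 1 promoter of this list with the letters TCACCCCAC. These letters were in 82 of 14256 windows (0.575%) and in 1 of the 20 windows of the list, with 6 of 702 windows of genes that rose by at least 1 (0.855%) and 13 of 1228 of genes that fell by at least 1 (1.06%). Hmgcs1, an early enzyme of the pathway, was at 278, 247 and 262 CPM without and 471, 474 and 459.8 CPM with TGFβ (log2 fold change 0.84, SE 0.0541, adjusted p 1.24e-12). Capitals mark the match, 137 bases before the start site (GRCm38.p6, chr13:119690101-119690400, plus strand):
Hmgcs1: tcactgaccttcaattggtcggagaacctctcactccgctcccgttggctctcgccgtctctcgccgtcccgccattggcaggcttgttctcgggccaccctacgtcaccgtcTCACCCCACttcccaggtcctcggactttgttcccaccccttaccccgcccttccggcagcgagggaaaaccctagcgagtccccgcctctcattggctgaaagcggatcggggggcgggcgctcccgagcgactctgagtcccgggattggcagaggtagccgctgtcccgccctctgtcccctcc
No match in the other windows says only that these letters are not there.

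**Figure D3:**
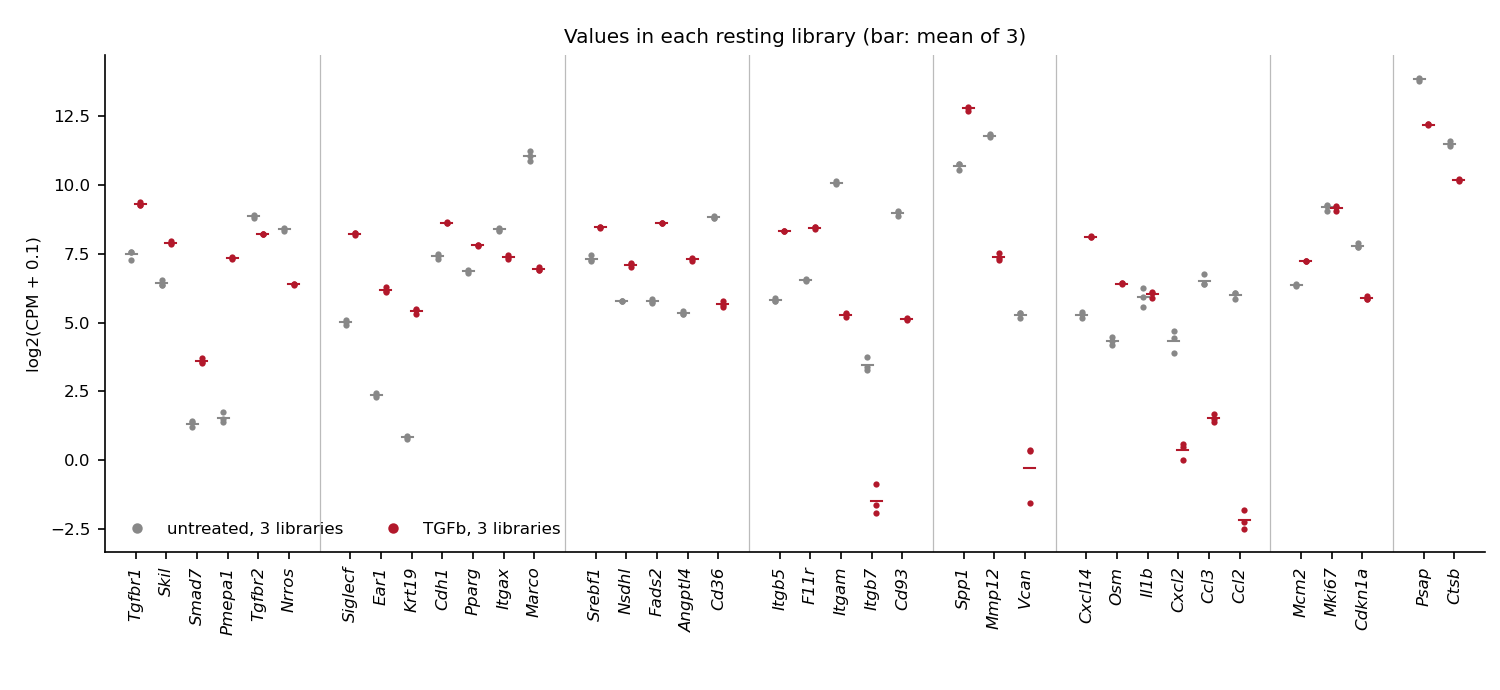
Each gene has its 3 untreated libraries in grey and its 3 TGFβ libraries in red, on a log2 CPM axis, with a bar at the mean of each group; vertical lines divide TGFβ pathway, alveolar identity, lipid and sterol, adhesion (with Itgam), matrix, inflammatory, cell cycle and lysosome genes. The groups overlap for Il1b and Mki67 among the genes drawn.

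Integrins and other adhesion receptors rose in 11 of 32 tested members and fell in 20, with a median of -0.36, and integrin chains moved apart. Itgb5 (chr16:33649988-33771137), a partner of the αv chain, was at 54.7, 59 and 55.2 CPM without and 323, 319 and 324 CPM with TGFβ, 5.71-fold higher (log2 fold change 2.51, SE 0.0491, adjusted p 3.97e-23). Itgb7 (chr15:102124429-102140379), the partner of the αE and α4 chains on mucosal leukocytes, was at 13.2, 10.4 and 9.47 CPM without and 0.166, 0.222 and 0.445 CPM with TGFβ, 39.1-fold lower. Itgae, which encodes αE and is a known TGFβ target in T cells, was at 0.289, 0.12 and 0.171 CPM and 0.526, 0.617 and 0.681 CPM (log2 fold change 1.64, SE 0.579, adjusted p 0.0203), under 1 CPM throughout, and its call was lost without untreated replicate 2 or 3 or TGFβ replicate 3 (adjusted p 0.0586 to 0.0971). Among leukocyte β2 integrins, Itgal rose by 1.42 while Itgam fell by 4.81 and the shared chain Itgb2 fell by 0.23 on the log2 scale. The junctional genes F11r (JAM-A) and Mcam rose 3.74-fold and 19.6-fold, to 348 ± 8.58 and 73.9 ± 5.25 CPM. Cd93, a C-type lectin of myeloid and endothelial cells, fell 14.5-fold from 506 ± 34.1 to 35 ± 0.907 CPM.

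Secreted matrix and protease genes fell in 29 of 34 tested members and rose in 3, with a median of -1.95. Mmp12 (chr9:7344381-7369499), the macrophage elastase, was at 3425, 3584 and 3703 CPM in untreated and 163, 185 and 154 CPM in TGFβ libraries, 21.3-fold lower (log2 fold change -4.41, SE 0.0765, adjusted p 7.92e-24). The membrane protease Mmp14 fell by 2.81, its inhibitor Timp2 by 2.64 and fibronectin, Fn1, by 1.64 on the log2 scale, so proteases, an inhibitor and a matrix protein fell alike. Adam8, a metalloprotease of activated leukocytes, was at 169.8, 182 and 178 CPM without and 1.05, 2.1 and 2.33 CPM with TGFβ, 95.6-fold lower. Vcan, the proteoglycan versican of monocytes, fell 45-fold, with TGFβ libraries at 1.19, 1.16 and 0.236 CPM. Serpinb2, an inhibitor of plasminogen activators, was at 4.31, 7.53 and 6.53 CPM without TGFβ and at 2, 0 and 0 counts with it. Against this trend Spp1 (chr5:104582165-104589235), which encodes osteopontin and is among the most abundant messages here, was at 1515, 1750 and 1730 CPM without and 7376, 7194 and 6651 CPM with TGFβ, 4.25-fold higher (log2 fold change 2.09, SE 0.0612, adjusted p 1.26e-19). Col4a1, a basement membrane collagen, rose only to 0.35 ± 0.131 CPM.

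Resting expression of inflammatory cytokines, chemokines and mediators fell in 33 of 51 tested members, rose in 6 and did not pass in 12, with a median of -1.0. The 4 largest falls were the CC chemokines Ccl2, Ccl7, Ccl3 and Ccl4. Ccl2 (chr11:81926397-81928279), the main ligand of CCR2, was at 58.4, 67.4 and 67.5 CPM in untreated and 0.111, 0.0741 and 0.183 CPM in TGFβ libraries, or 4, 3 and 7 counts (log2 fold change -9.01, SE 0.154, adjusted p 3.86e-24). It went from well expressed to near the detection limit in every library. Ccl3 and Ccl4, which attract leukocytes, fell 33.6-fold and 30.8-fold, from 92.8 ± 13.5 and 19.1 ± 2.54 CPM. The log2 fold change of Ccl4, -4.94, was -5.53 without TGFβ replicate 2. The neutrophil chemokines Cxcl2 and Cxcl3 fell as well. Cxcl2 was at 14.6, 26 and 21.6 CPM and 1.3, 0.914 and 1.39 CPM (log2 fold change -4.12, SE 0.29, adjusted p 1.76e-06), and Cxcl3 at 13.9, 21.9 and 21.8 CPM and 0.858, 0.667 and 0.576 CPM (log2 fold change -4.78, SE 0.358, adjusted p 4.03e-06). For each, the lowest untreated library was more than 10 times the highest TGFβ library. Il6 and Tnf, cytokines of acute inflammation, fell by 4.08 and 1.73 on the log2 scale.

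Other mediators did not fall. Il1b (chr2:129206490-129213059), the cytokine processed by inflammasomes, was at 46.8, 76.6 and 61.3 CPM without and 68, 69 and 60 CPM with TGFβ. Its groups overlapped and the difference did not pass (log2 fold change 0.09, SE 0.173, adjusted p 0.697). Nos2, which makes nitric oxide, had 0 to 3 counts in each resting library and was not tested, so whether it fell cannot be told. Cxcl14, a chemokine of epithelia and macrophages, was at 35.6, 41.6 and 39.8 CPM and 279, 281 and 274 CPM, 7.14-fold higher (log2 fold change 2.84, SE 0.0597, adjusted p 1.7e-22). Osm, oncostatin M, was at 18, 20 and 21.9 CPM and 86.3, 84.1 and 86 CPM, 4.29-fold higher, and its relative in the IL-6 family, Lif, rose 13.4-fold from 5.08 ± 0.684 to 67.8 ± 3.54 CPM. C5ar1, the receptor for complement C5a, rose 1.95-fold.

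Cxcl2 and Cxcl3, neighbours on chromosome 5, are shown because both promoters hold an NF-κB-type match, GGANTTTCC, where N is any base. It was in 198 of 14256 windows (1.39%) and in 11 of the 44 windows of the inflammatory list (25%), with 31 of 1228 windows of genes that fell by at least 1 (2.52%) and 4 of 702 of genes that rose by at least 1 (0.57%). Of the 11 inflammatory genes with a match, Acod1, Ccrl2, Csf1, Cxcl1, Cxcl10, Cxcl2, Cxcl3, Il6, Nfkbia and Tnfaip3 fell and Tnfaip2 rose. In the whole list 33 of 51 tested members fell, and 28.1% of all tested genes did. Whether a match goes with a fall was not tested. The list was drawn up as inflammatory cytokines, chemokines and mediators, with earlier results of these data known. The reason for its high share was not tested. Capitals mark the match, which begins 96 bases before the start of Cxcl2 (chr5:90903649-90903948, plus strand) and 72 before that of Cxcl3 (chr5:90785851-90786150, plus strand), both in GRCm38.p6:
Cxcl2: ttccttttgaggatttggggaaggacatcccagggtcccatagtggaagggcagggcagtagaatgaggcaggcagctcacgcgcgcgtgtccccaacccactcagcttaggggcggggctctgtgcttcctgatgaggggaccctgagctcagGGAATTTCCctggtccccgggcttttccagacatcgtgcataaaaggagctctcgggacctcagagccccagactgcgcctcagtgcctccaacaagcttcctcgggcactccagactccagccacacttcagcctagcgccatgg
Cxcl3: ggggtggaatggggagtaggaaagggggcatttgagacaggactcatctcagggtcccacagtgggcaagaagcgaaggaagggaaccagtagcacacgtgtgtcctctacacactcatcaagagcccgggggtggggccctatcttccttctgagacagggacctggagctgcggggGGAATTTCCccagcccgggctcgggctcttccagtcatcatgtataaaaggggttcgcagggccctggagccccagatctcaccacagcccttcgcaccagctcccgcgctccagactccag
Both promoters carry the same 9 letters GGAATTTCC at the match.

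Genes that sense and relay Toll-like receptor ligands fell in 19 of 33 members and rose in 5, with a median of -0.36. Tlr1, the partner of TLR2 for triacylated lipopeptides such as Pam3, was at 12.3, 11.6 and 13.3 CPM without and 0.996, 0.593 and 1.13 CPM with TGFβ, 13.8-fold lower (log2 fold change -3.78, SE 0.167, adjusted p 5.68e-16). Tlr13, a receptor for bacterial ribosomal RNA, fell 2.52-fold and the NF-κB subunit Relb 2.17-fold. The flagellin receptor Tlr5 had no count without TGFβ and 0.277, 0.444 and 0.472 CPM with it, at least 5.04-fold higher but rare. Interferon-stimulated genes fell in 31 of 54 members and rose in 6, with a median of -0.53. Ifitm3, a restriction factor of virus entry, fell from 10.4, 11.7 and 9.41 CPM to 0, 0.0741 and 0.131 CPM, and the antiviral GTPase Mx1 fell 9.39-fold to 0.47, 1.85 and 1.47 CPM. Ifit1 was low, at 2.08, 3.49 and 3.68 CPM and 1.05, 1.98 and 1.55 CPM (log2 fold change -1.0, SE 0.299, adjusted p 0.0193), and lost its call without untreated replicate 2 or 3 or TGFβ replicate 1 or 3 (adjusted p 0.0584 to 0.0876).

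Genes of antigen presentation by MHC class II fell in 10 of 16 members and rose in 4, with a median of -0.62. The invariant chain Cd74 fell 3.33-fold from 153 ± 15.1 to 46.1 ± 0.73 CPM, and H2-Aa, an α chain, was at 16.2, 20.4 and 17.3 CPM and 6.25, 6.05 and 6.97 CPM (log2 fold change -1.49, SE 0.107, adjusted p 9.98e-12). Ciita, the activator of these genes, was higher, at 2.5, 2.74 and 2.48 CPM without and 3.74, 4.25 and 5.79 CPM with TGFβ (log2 fold change 0.83, SE 0.212, adjusted p 0.00191). With libraries of low mitochondrial share alone, which leave 1 TGFβ library, its log2 fold change was 0.72 and its call was lost. The costimulatory ligand Cd80 fell 5.65-fold. Scavenger, lectin, Fc and apoptotic cell receptors fell in 26 of 38 members and rose in 5, with a median of -0.77. The inhibitory lectin Clec12a, which senses dead cells, was at 101, 101 and 104 CPM without and 3.57, 3.95 and 4.58 CPM with TGFβ, 25.3-fold lower, and the galactose lectin Mgl2 fell from 7.07 ± 1.24 to 0.0596 ± 0.0539 CPM. Siglece, an inhibitory sialic acid receptor, rose 5.1-fold from 38.1 ± 4.91 to 194 ± 2.29 CPM. Axl, the receptor by which lung macrophages take up apoptotic cells, rose 1.32-fold from 1478 ± 21.4 to 1949 ± 55.3 CPM, while Gas6, the ligand that bridges it to those cells, fell from 2.58, 1.61 and 1.97 CPM to 0.0553, 0.198 and 0 CPM.

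Genes of purine signalling moved in both directions. Nt5e (chr9:88209089-88254146), the ectoenzyme CD73 that makes adenosine from AMP, was at 3.37, 4.21 and 4.85 CPM in untreated and 135, 134 and 134 CPM in TGFβ libraries, 32.5-fold higher (log2 fold change 5.02, SE 0.1, adjusted p 2.23e-21). The adenosine receptor Adora2a was at 0.605, 1.06 and 0.856 CPM without TGFβ and had no count with it, at least 10.7-fold lower. The ATP receptors moved apart, with P2ry2 3.25-fold higher and P2rx4 2.67-fold lower. Of the 19 tested members of the list 5 rose, 8 fell and 6 did not pass.

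DNA replication genes rose in 29 of 35 members and none fell, with a median of 0.50 and a highest value of 0.88. The helicase subunits Mcm4 and Mcm2 (chr6:88860452-88875762), which open DNA at origins, led the list. Mcm2 was at 85.2, 83.1 and 79.7 CPM without and 151, 153 and 149.5 CPM with TGFβ, 1.83-fold higher (log2 fold change 0.87, SE 0.05, adjusted p 1.16e-13), and Mcm4 rose 1.84-fold. Uhrf1, which keeps DNA methylation through replication, rose 1.75-fold. Of 38 mitosis genes 14 rose and none fell, 24 did not pass, and the median was 0.10 (0.06 to 0.13 when 1 library was left out). Only 7 passed when the fit kept the libraries of low mitochondrial share. Mki67 (chr7:135291513-135318299), the proliferation marker Ki-67, was at 599.7, 534 and 617 CPM without and 529.5, 594 and 597 CPM with TGFβ, with overlapping groups (log2 fold change -0.02, SE 0.0596, adjusted p 0.764). The spindle checkpoint kinase Bub1 moved most, 1.49-fold from 44.1 ± 1.88 to 65.8 ± 0.237 CPM. Summed over members, replication genes were at 1496 to 1580 CPM without and 2190 to 2233 CPM with TGFβ, and mitosis genes at 2326 to 2378 and 2510 to 2564 CPM. No member of either list reached a change of 1 on the log2 scale.

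Regulators of cycle entry and arrest rose in 10 and fell in 10 of 32 members, with a median of 0.02. The 3 largest falls were inhibitors of cyclin-dependent kinases. Cdkn1a (chr17:29309936-29319701), encoding p21, was at 216, 238 and 213 CPM without and 61.9, 57.6 and 57.5 CPM with TGFβ, 3.77-fold lower (log2 fold change -1.91, SE 0.054, adjusted p 5.67e-20). Cdkn2a, encoding p16 and p19Arf, fell 3.61-fold from 37.2 ± 3.14 to 10.3 ± 1.55 CPM. Cdkn1c, encoding p57, was under 1 CPM throughout, at 0.631, 0.265 and 0.399 CPM without and 0.0277, 0.0988 and 0.0262 CPM with TGFβ (log2 fold change -2.98, SE 0.858, adjusted p 0.00518). Its log2 fold change was -3.83 without TGFβ replicate 2, and its call was lost with libraries of low mitochondrial share alone (-2.12, adjusted p 0.293). The cyclin gene Ccnd1 fell 1.8-fold, from 71.4 ± 3.3 to 39.7 ± 2.5 CPM. Cdk2, the kinase of S phase entry, and Myc rose 1.53-fold and 1.39-fold.

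**Figure D4:**
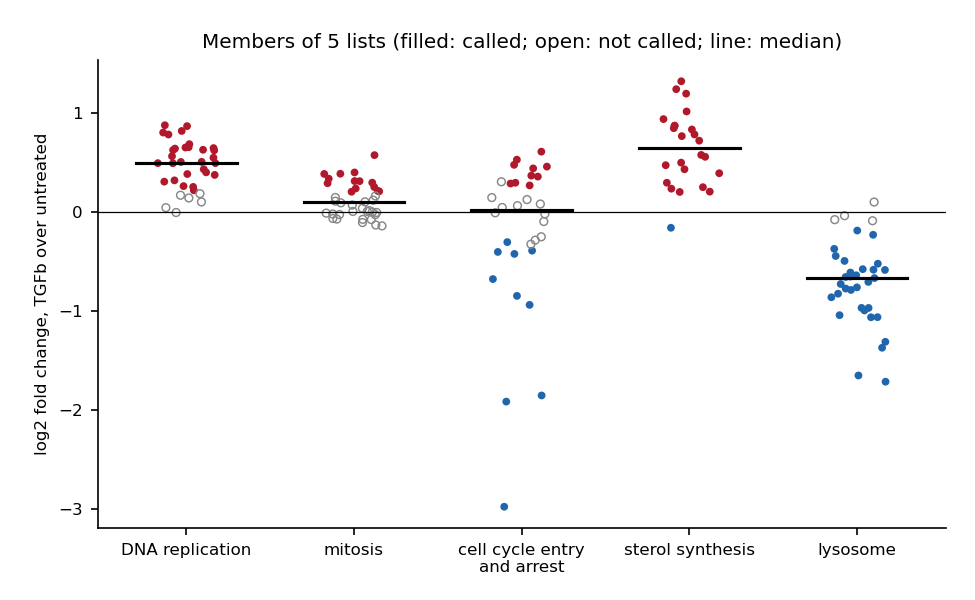
Points are members of 5 gene lists with their log2 fold change with TGFβ in resting cells; filled points passed an adjusted p of 0.05 (red higher, blue lower), open points did not, and lines are medians. DNA replication (median 0.50) and sterol synthesis (0.65) lie above 0, mitosis (0.10) and cycle control (0.02) around it, and lysosome genes (-0.67) below.

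Lysosome genes fell in 31 of 35 members and none rose, with a median of -0.67. Psap (chr10:60113431-60138380), the precursor of the saposins that help degrade sphingolipids, was at 14790, 15310 and 14250 CPM without and 4766, 4654 and 4717 CPM with TGFβ, 3.14-fold lower (log2 fold change -1.65, SE 0.0466, adjusted p 5.81e-20). The proteases Lgmn, Ctsl and Ctsb fell 3.28-fold, 2.58-fold and 2.48-fold. Summed over the list, the level was 76940 to 84230 CPM without and 40110 to 41640 CPM with TGFβ, so these abundant messages took up a smaller share of all counts. Genes of oxidant defence and iron handling fell in 16 of 32 members and rose in 9, with a median of -0.26. Slc40a1, ferroportin, was at 49.8, 48.3 and 50.9 CPM and 12.7, 11.6 and 10.9 CPM, 4.23-fold lower, and Slc11a1, which moves metal out of the phagosome, fell 9.42-fold. Hmox1, haem oxygenase, fell 2.18-fold. The transferrin receptor Tfrc was at 67.4, 62.6 and 67.5 CPM and 117, 122 and 106 CPM, 1.75-fold higher, and Trf, transferrin, rose 2.13-fold.

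Over all tested genes, the rule of size named several genes outside these lists. Among those that rose, Cxcr2, a receptor for neutrophil chemokines, went from 0.132, 0.0722 and 0 CPM to 6.47, 6.42 and 7.34 CPM. Of the other neutrophil markers, S100a8 fell by 2.17 on the log2 scale. S100a9 and Camp also passed the test, on few counts: S100a9 had 20, 5 and 4 counts without and 34, 56 and 25 with TGFβ, and Camp had 0, 1 and 0 and then 7, 8 and 5. The log2 fold change of S100a9 was 1.96, and 3.07 without untreated replicate 1. Vipr2, a receptor for vasoactive intestinal peptide, was at 1.47, 1.4 and 0.941 CPM without and 87.1, 77.1 and 87.9 CPM with TGFβ (log2 fold change 6.03, SE 0.118, adjusted p 4.22e-23). Npnt, a matrix ligand of integrin α8β1, rose 41.1-fold from 0.767 ± 0.203 to 31.7 ± 1.42 CPM, and Cd34, a surface sialomucin, 33.8-fold from 0.762 ± 0.124 to 25.8 ± 3.15 CPM. Among those that fell, Igf2r (chr17:12901293-12988614), the receptor that sorts lysosomal enzymes and binds IGF2, was at 40.3, 35.9 and 40.6 CPM in untreated libraries and at 0, 2 and 0 counts in TGFβ libraries. Nes, the intermediate filament nestin, was at 15.7, 15.7 and 15.7 CPM without TGFβ and had no count with it, at least 200-fold lower. Serpinb10 and Eef1a2 also had no count with TGFβ and were at least 94.3-fold and 135-fold lower. Cmklr1, the receptor for chemerin, fell 707-fold from 76.3 ± 8.57 to 0.107 ± 0.0736 CPM. Its TGFβ mean is close to the level of 3 counts (0.0786 CPM), so this fold is uncertain. The log2 fold change of Cmklr1 ran from -9.88 to -8.96 when 1 library was left out. Dcstamp, which is needed for fusion of osteoclasts and giant cells, fell 112-fold from 34.6 ± 4.22 to 0.304 ± 0.103 CPM, the latter from 8, 11 and 16 counts.

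The TGFβ effect was also measured between Pam3 and Pam3+TGFβ libraries, which bear on the resting comparison only through the choice of genes tested, the scaling and the shared estimate of spread. With Pam3, 6679 genes were called (45.3% of those tested), 21.5% of tested genes higher and 23.8% lower. The difference between the effects passed for 2352 genes (15.9%), with the effect higher with Pam3 in 10.3% of tested genes and lower in 5.67%. Of the 7518 genes called at rest, 4894 (65.1%) were called in the same direction with Pam3, 275 (3.66%) in the opposite direction and 2349 (31.2%) were not called, and 1907 (25.4%) had a called difference. All Pam3+TGFβ libraries and Pam3 replicate 1 are of low mitochondrial share, and Pam3 replicates 2 and 3 of high share; with low-share libraries alone the difference passed for 802 genes, a fit in which the TGFβ and the Pam3 groups have 1 library each and are assumed to vary like the other groups. Several genes described at rest were also called with Pam3 in the same direction: Pmepa1 had a log2 fold change of 5.64, Krt79 of 8.09, Pparg of 0.95, Nt5e of 4.88, Cd36 of -2.93 and Fabp4 of -7.10, none with a called difference from rest. Sterol synthesis genes rose in 23 of 24 members in this setting as well, and the difference was called for 6.

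Of the 18 lists, those with the largest share of called differences were the interferon-stimulated and inflammatory ones. The difference was called for 38 of 51 inflammatory members (30 higher with Pam3) and for 53 of 54 interferon-stimulated members, all higher. Ccl2 fell by 9.01 at rest and by 3.40 with Pam3 on the log2 scale, a difference of 5.60 (SE 0.217, adjusted p 4.93e-15). Cxcl3 fell at rest but was at 91.8 ± 16.9 CPM with Pam3 and 188 ± 37.3 CPM with Pam3+TGFβ, a rise of 1.03 on the log2 scale and a difference of 5.81 (adjusted p 1.75e-05). Il1b, which did not pass at rest, had a log2 fold change of 2.13 with Pam3 and a difference of 2.04 (adjusted p 0.000456). The median log2 fold change of DNA replication genes was 0.50 at rest and 0.30 with Pam3, and that of mitosis genes 0.10 and 0.31. The difference was called in 9 of 35 replication genes, all with a smaller TGFβ effect with Pam3, and in 10 of 38 mitosis genes, all with a larger one, against 15.9% of all tested genes. Mki67 had a log2 fold change of 0.27 with Pam3 and a difference of 0.29 (adjusted p 0.0177).

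**Figure D5:**
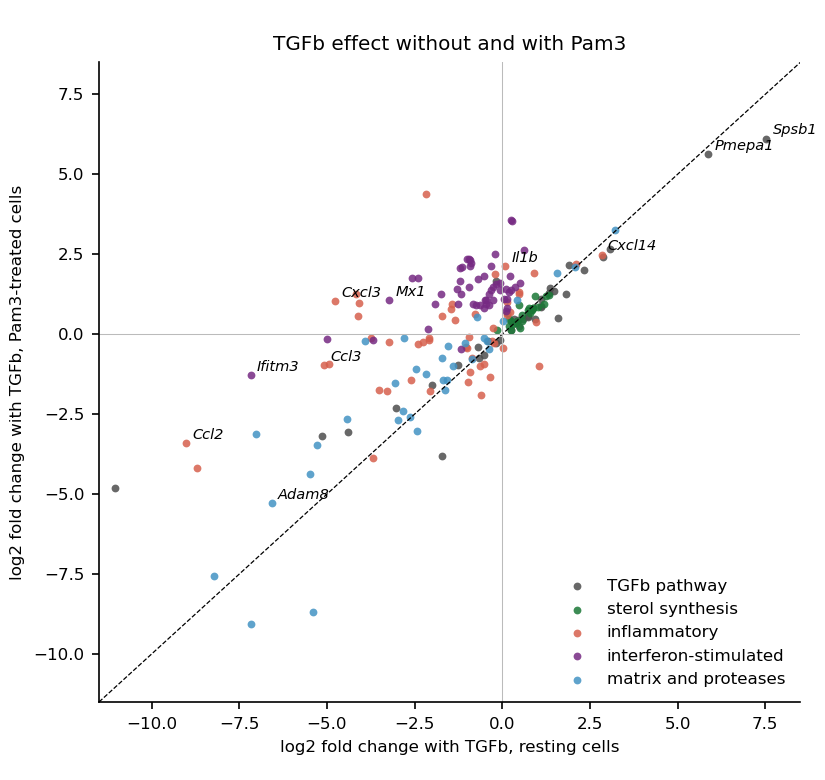
Each point is a member of 1 of 5 lists, with its log2 fold change with TGFβ in resting cells on the horizontal axis and in Pam3-treated cells on the vertical axis; the dashed line marks equal effects, and the axes share no library. Sterol synthesis genes lie along the line, and nearly all interferon-stimulated genes (53 of 54 with a called difference) lie above it.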

How the data were processed

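Stranded mRNA libraries of 12 samples were sequenced. Per the labels' protocols and the submitters' processing notes, the authors used bcl2fastq 2.20.0, FastQC 0.11.7, Bowtie2 2.4.1 on GRCm39, featureCounts of Subread 2.0.0, and DESeq2 1.36.0 in R 4.2.1. Annotation, strand setting and handling of multiply mapped reads are not given in the sources used here. Bowtie2 does not split reads over introns, so reads across exon junctions can be lost. The deposited counts are whole reads per gene symbol (40847 rows, 17090 without a count). A second deposited table holds the authors' normalized signal, which is each count over 1 constant per library and served only an alternative.

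Genes were kept by filterByExpr (minimum count 10), scaled by TMM and tested with the quasi-likelihood test of edgeR 4.0.16 (R 4.3.3, robust) over all 12 libraries with 4 group means. The Benjamini-Hochberg adjusted p was taken over all 14749 genes, called under 0.05. CPM uses TMM-scaled sizes. The procedure was tested on simulated data: 188 of 200 changed genes were recovered, with 7 false among 195 calls (14139 genes). The simulation changed far fewer genes than were called here, each by more than the median size of those calls. None of the changed genes was under 1 CPM, and no difference in mitochondrial share was simulated. It therefore does not measure the error rate of the calls in these data. No library was a copy of another (chi-square over genes divided by its degrees of freedom was at least 9.99 between replicates). A gene at no more than 3 counts in each library of a group is bounded against 3 counts. Such a bound is a single ratio, of the other group's mean CPM to the CPM of 3 counts, and carries no measure of spread. Same-numbered libraries are not said to be paired, so no block was used. Deviations of same-numbered untreated and TGFβ libraries correlated at -0.128, 0.25 and 0.3 for replicates 1 to 3. The libraries of replicate 1 differ in class of mitochondrial share, and those of replicates 2 and 3 are alike in it. These correlations therefore cannot decide whether the libraries are paired.

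The comparison, gene lists and rule were chosen with earlier results of these data known. The rule names, per list and direction, up to 4 called members by size of change, provided that the groups do not overlap and that each library of the higher one has at least 10 counts; over all genes, 12 per direction with a mean of at least 5 CPM; and a set of anchor genes such as Pparg, Mki67 and Ccl2. Not every gene it picks is described. A few are not reported here. Gene positions come from GENCODE M39 (GRCm39), matched by symbol for 91.9% of tested genes. Alternatives were other scalings, DESeq2 1.42.0, limma-trend (limma 3.58.1) on log2 of the deposited normalized values plus 1, other filters, a replicate block, non-robust dispersion, a minimum change of 1, the resting libraries alone, leaving out each library and, added after seeing the data, a covariate for mitochondrial share and low-share libraries alone.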

Additional observations from a re-analysis of the deposited data

Results flagged for a closer look

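The difference between the TGFβ effects with and without Pam3 passed edgeR's test for 2352 genes, and each gene described in the text that had such a difference is given here, with the effect with Pam3 minus the effect at rest on the log2 scale. Among genes that fell at rest, the value was positive because the fall was smaller with Pam3, or did not pass there, for Lrrc32 6.24, Nrros 0.41, Marco 1.58, Itgax 0.53, Csf1r 0.27, Itgam 1.15, Gpnmb 0.25, Adam8 1.29, Mmp12 1.76, Ccl2 5.60, Ccl3 4.12, Ccl4 4.0, Ccl7 4.52, Csf1 1.76, Cxcl1 2.99, Ifitm3 5.89, Cd74 0.79, H2-Aa 0.56, Clec12a 0.80, Cdkn1a 0.49, Slc11a1 0.92, Hmox1 0.92, Ctsb 0.48, Adora2a 7.71, P2rx4 0.48, Nes 4.71, Igf2r 3.25, Cmklr1 1.52, Lpl 0.35, Mmp14 2.71, Lyz2 0.55 and Dcstamp 2.60. Those of Lrrc32, Nes, Adora2a and Ccl7 depend on the prior count, since these genes had no count in the resting TGFβ libraries, and that of Igf2r rests on 0, 2 and 0 counts there. With 1 library left out, the resting log2 fold change behind the difference ran from -13.51 to -10.35 for Igf2r, from -4.56 to -2.64 for Cxcl1, from -3.13 to -1.78 for Cxcl10, from -5.53 to -4.54 for Ccl4 and down to -7.93 for Ifitm3. Genes that fell at rest and rose with Pam3 were Cxcl2 4.70, Cxcl3 5.81, Relb 1.73, Mx1 4.29, Ifit1 3.37, Acod1 5.41, Ccrl2 2.36, Cxcl10 6.57, Nfkbia 1.39, Tnfaip3 2.24, Il6 5.06 and Tnf 2.31. Among genes that rose at rest, the rise was smaller or did not pass with Pam3 for Spsb1 -1.42, Tgfbr1 -0.57, Siglecf -0.66, Ear1 -0.63, Cdh1 -0.39, Srebf1 -0.25, Acat2 -0.25, Itgb5 -0.83, Cxcl14 -0.34, C5ar1 -0.58, Siglece -0.88, Mcm4 -0.46, Mcm2 -0.26, Uhrf1 -0.36, Tfrc -0.72, P2ry2 -0.92, Vipr2 -0.83, Id3 -1.08, Fasn -0.32 and Scd1 -0.22, and larger for Dgat2 0.79, Abca1 0.62, Tnfaip2 0.47, Acp5 0.40 and Tgfbi 0.24. Genes that did not pass at rest had differences of 2.04 (Il1b) and 0.29 (Mki67). The share of mitochondrial counts also differs between the Pam3 and Pam3+TGFβ libraries, and its part in these differences was not tested gene by gene.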

How the results depend on the processing

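With a minimum log2 fold change of 1 as the null, 1188 genes were called at rest (342 higher, 846 lower), 981 with Pam3 and 203 for the difference. Members called then numbered 18 in the TGFβ pathway, 11 in alveolar identity, 13 in other macrophage identity, 9 in lipid handling, 2 in sterol synthesis, 12 in adhesion, 23 in inflammatory, 3 in Toll-like receptor, 11 in interferon-stimulated, 3 in MHC class II, 16 in uptake receptor, 2 in cycle control, 3 in iron, 4 in lysosome and 7 in purine genes, and 0 in DNA replication and in mitosis, where 29 and 14 passed edgeR's usual test. With low-mitochondrial libraries alone (fewer samples, with 1 TGFβ and 1 Pam3 library assumed to vary like the others), 2725 genes fell, 802 differences passed, 20 adhesion and 7 mitosis members were called, and medians were 0.56 (TGFβ pathway), -1.74 (other macrophage), -0.37 (interferon-stimulated), -0.70 (MHC class II), 0.04 (cycle control) and -0.10 (iron). A mean of at least 1 CPM, which tests fewer genes, gave medians of 0.77 (TGFβ pathway), 0.19 (alveolar identity), -1.67 (matrix), -0.61 (uptake receptors) and 0.08 (cycle control). No filter, which tests more, gave -1.79 (other macrophage), 0.32 (lipid), 0.58 (sterol), -0.47 (adhesion), -1.73 (matrix), -0.65 (uptake receptors) and -0.01 (cycle control), the only median to change sign. The resting libraries alone gave 0.68 (TGFβ pathway), -1.78 (other macrophage), -0.87 (uptake receptors) and 0.06 (cycle control), and cycle control was 0.04 with limma-trend and 0.05 with upper-quartile scaling.

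Leaving out 1 library, genes called ran from 6923 to 7580, and medians from 0.40 to 0.62 (TGFβ pathway), -2.71 to -1.75 (other macrophage), -2.11 to -1.79 (matrix), -1.14 to -0.95 (inflammatory), -0.66 to -0.56 (MHC class II), 0.06 to 0.13 (mitosis) and 0.02 to 0.07 (cycle control). Smad3, Itgae, Ifit1 and Ddx3y lost their calls in some of these, and these with Camp, Cx3cr1, Col4a1, Ciita, Itgb2 and Cdkn1c with low-share libraries alone. A replicate block, although the pairing is not stated, gave 3403 higher and 4159 lower genes. Of the genes described, Il1b, Mki67 and Xist, which did not pass, changed sign under some alternatives, from -0.05 to 0.28, from -0.08 to 0.05 and from -0.1 to 0.25 when 1 library was left out. None of the genes described with a call at rest changed sign under the alternatives run, and 46 lost their calls under the minimum change. The low level of Smad3, Itgae, Col4a1 and Ifit1 limits what their counts can show.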

Other observations

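Promoter windows of genes that fell by at least 1 on the log2 scale held the AP-1 letters TGANTCA in 11.2% (138 of 1228), against 5.65% of all 14256 windows and 6.41% of those of genes that rose by at least 1. For the PU.1 letters GAGGAAGT the shares were 6.35%, 3.36% and 3.56%. The letters TTTGAA, the cell cycle homology region that is known in promoters of mitotic genes, were in 25 of 33 windows of the mitosis list (75.8%) and 4 of 34 of the DNA replication list (11.8%), against 13.1% of all windows. Both strands were searched and motifs may overlap. These shares are descriptions, and base composition was not taken into account.

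Xist, the RNA of the inactive X chromosome, and the Y-linked helicase gene Ddx3y were both present in every resting library, at 55.8 to 92.3 and 68 to 79 CPM without and 72.1 to 88.8 and 63.1 to 69.6 CPM with TGFβ. The fetal liver protein gene Afp was at 5.77 ± 0.0595 and 5.91 ± 0.318 CPM, with overlapping groups (log2 fold change 0.03, SE 0.122, adjusted p 0.848), while the hepatocyte markers Ttr and Serpina1a had no count.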
